A study of Mus musculus with 2 samples.

Results

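The core circadian clock genes are 10 genes, Clock, Npas2, Arntl, Per1, Per2, Cry1, Cry2, Nr1d1, Nr1d2 and Dbp. They were chosen by gene symbol, and each symbol matched 1 of the 31040 genes of the count matrix. The circadian clock is a transcription loop that runs in nearly every cell of the body with a period of about a day. CLOCK or its paralogue NPAS2 pairs with BMAL1, the product of Arntl, and the pair binds E-box motifs and turns on the Per, Cry, Nr1d and Dbp genes. PER and CRY proteins then repress that pair, the REV-ERB proteins of the Nr1d genes repress Arntl, and DBP carries the rhythm to genes with D-box motifs. In the brain the loop is set by light through the suprachiasmatic nucleus, and Per1 and Per2 also respond to neuronal activity and glucocorticoids.

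RNA of single nuclei was sequenced from prefrontal cortex of wild type male C57BL/6 mice, 2 months old, kept on a cycle of 12 h of light and 12 h of dark. Mice of the METH group received methamphetamine, a stimulant that raises synaptic dopamine, intraperitoneally at 5 mg/kg for 14 days, and mice of the Control group received saline by the same route for 14 days. Tissue of 3 mice per group, killed under chloral hydrate, was pooled, and nuclei from an iodixanol gradient were tagged in droplets with a barcode and with unique molecular identifiers (UMIs), giving 1 library per group. The time of day of death is not given in the sources used here, so the phase of the clock at which the levels stand is not known. Barcodes end in 1 of 2 numbers, which no label ties to METH or Control, so the effect of METH could not be read and values are given for library 1 and library 2. With 1 pooled library per group there are no replicates: no test was run, and all intervals are 95% intervals that cover counting error only.

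After a minimum of 500 genes and removal of doublets, 18002 nuclei were kept (8003 in library 1 and 9999 in library 2), and the members held between 980 UMIs (Cry1) and 9748 UMIs (Clock) over all barcodes. Marker genes named 9 classes of at least 100 nuclei: excitatory neurons (8007 nuclei), oligodendrocytes (3057), interneurons (2442), striatal projection neurons (1183), microglia (881), oligodendrocyte precursors (364), astrocytes (310), neuroblasts (246) and differentiating oligodendrocytes (110). Striatal projection neurons and neuroblasts carried 12 of 12 and 7 of 7 of their markers at 20 CPM or more, where CPM is the counts-per-million level, a gene's UMIs scaled to the total UMIs of the class, although the labels name only the prefrontal cortex. Only 52 of the 310 astrocytes and 307 of the 1183 striatal projection neurons were in library 1, and 111 barcode sequences occurred in both libraries among the nuclei kept. Free RNA, which enters every droplet, was followed by an index, the level of the excitatory gene Slc17a7 in the other classes and its estimate in excitatory neurons. The index was 67.9 CPM in library 1 and 138 CPM in library 2 in excitatory neurons, and 371 and 383 CPM in astrocytes of libraries 1 and 2. The upper limit for free RNA of a gene was set by the class where that gene was lowest for its index, so some class lies at or near it for every gene. The clock genes were left out of the genes used for clustering, and all levels are in CPM.

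All 10 members are protein-coding genes, placed here on the mouse genome build GRCm38. Of the activators, Clock (ENSMUSG00000029238) spans chr5:76209868-76304792 on the minus strand, Npas2 (ENSMUSG00000026077) spans chr1:39193731-39363236 on the plus strand and Arntl (ENSMUSG00000055116) spans chr7:113207465-113314126 on the plus strand. Of the repressors, Per1 (ENSMUSG00000020893) spans chr11:69095217-69109960 on the plus strand and Per2 (ENSMUSG00000055866) spans chr1:91415982-91459324 on the minus strand. Cry1 (ENSMUSG00000020038) spans chr10:85131700-85185064 and Cry2 (ENSMUSG00000068742) spans chr2:92403646-92434043, both on the minus strand. Nr1d1 (ENSMUSG00000020889) spans chr11:98767932-98775333 and Nr1d2 (ENSMUSG00000021775) spans chr14:18204054-18239127, both on the minus strand, and the output gene Dbp (ENSMUSG00000059824) spans chr7:45705088-45710203 on the plus strand. Library reads of this chemistry come mostly from the 3′ ends of transcripts. The 3′ end of Nr1d1 overlaps that of Thra, a thyroid hormone receptor gene on the opposite strand with 10792 UMIs, over 1075 bases, and Dbp overlaps Sphk2 on the opposite strand, with 630 UMIs, over 737 bases. Whether the counting used strand is not given in the sources used here, so reads of these partners cannot be told apart.

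The promoters were searched for the kinds of motif through which the loop is known to act, and matches are shown. Promoters from RefSeq on GRCm38.p6, of 250 bases before and 50 bases after a start, were matched for 9 of the 10 members, all but Per2, with 13 promoters in all. Searched on both strands for the E-box CACGTG, the E′-box CACGTT, the D-boxes TTATGTAA and TTATGCAA, the elements of ROR and REV-ERB proteins, TAGGTCA and TGGGTCA each preceded by A and any 2 bases, and the cAMP element TGACGTCA, they held 7 matches in 5 genes. The E-box was in Per1 and Cry1 and in 7.15% of all 32851 promoters (8.09% of genes). The E′-box was in Cry1, Cry2 and Nr1d1 and in 4.68% of all promoters (5.44% of genes). TTATGCAA was in Per1 and in 0.743% of promoters, and the element with TAGGTCA was in Arntl and in 0.70% of promoters. TTATGTAA (0.938% of promoters), the element with TGGGTCA (0.913%) and TGACGTCA (1.79%) matched no member in these windows. Clock, Npas2, Nr1d2 and Dbp held no match of any kind there. A match describes the letters, not a bound site or a cause. The 250 bases before the start are given for the 4 genes with a match there, written 5′ to 3′ on the strand of the gene, with matches in capitals: in Per1 an E-box 166 bases and a D-box 24 bases before the start, in Cry1 an E′-box 79 bases and an E-box 60 bases before it, in Cry2 an E′-box 166 bases and in Nr1d1 an E′-box 28 bases before it. AACGTG is the E′-box read on the other strand. Per1 has 2 listed promoters. Both of its matches lie in the first, which falls inside the span of Per1 given above, and the other held no match.
Per1 promoter, chr11:69098699-69098948, plus strand: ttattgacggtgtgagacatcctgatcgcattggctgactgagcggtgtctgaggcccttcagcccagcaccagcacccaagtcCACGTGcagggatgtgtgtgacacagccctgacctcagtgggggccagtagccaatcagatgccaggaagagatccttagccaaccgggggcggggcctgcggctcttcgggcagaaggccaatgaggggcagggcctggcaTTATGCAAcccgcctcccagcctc
Cry1 promoter, chr10:85185055-85185304, minus strand: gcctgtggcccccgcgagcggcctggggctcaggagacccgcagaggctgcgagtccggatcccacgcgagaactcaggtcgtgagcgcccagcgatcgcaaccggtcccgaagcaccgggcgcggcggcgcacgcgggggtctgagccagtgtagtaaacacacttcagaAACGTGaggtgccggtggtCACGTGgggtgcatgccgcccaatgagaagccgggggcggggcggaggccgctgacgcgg
Cry2 promoter, chr2:92434070-92434319, minus strand: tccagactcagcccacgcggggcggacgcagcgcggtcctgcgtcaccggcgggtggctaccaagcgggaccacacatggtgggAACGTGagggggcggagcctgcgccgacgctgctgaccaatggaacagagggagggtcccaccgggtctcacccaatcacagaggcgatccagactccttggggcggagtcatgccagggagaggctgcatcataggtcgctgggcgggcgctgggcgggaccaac
Nr1d1 promoter, chr11:98775378-98775627, minus strand: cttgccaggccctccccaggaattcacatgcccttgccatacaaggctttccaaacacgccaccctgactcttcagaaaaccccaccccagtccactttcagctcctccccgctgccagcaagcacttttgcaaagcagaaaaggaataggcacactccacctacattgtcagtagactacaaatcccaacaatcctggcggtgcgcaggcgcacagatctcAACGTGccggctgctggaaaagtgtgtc
The match in Arntl, to which REV-ERB and ROR proteins are known to bind, begins 28 bases after the start of its second listed promoter, inside an annotated exon.
Arntl element, chr7:113207528-113207557, plus strand: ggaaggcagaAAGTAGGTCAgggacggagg

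Among the activators, Clock differed less between classes than its paralogue Npas2. Clock ran from 136 CPM in astrocytes to 186 CPM in oligodendrocytes, a 1.37-fold spread. No class stood next to another in this order with an interval of their ratio that excluded 1. Classes further apart in the order could still differ, as oligodendrocytes (171 to 203 CPM) and excitatory neurons (138 to 145 CPM) did. In microglia and astrocytes Clock lay at or under the upper limit for free RNA, so those levels could not be told apart from free RNA. The limit is an upper bound, so a level under it need not be free RNA. A class was called higher or lower for a gene where its level was at least 1.5-fold that of all other named nuclei, or at most 1/1.5 of it, in library 1 and in library 2 alike. By this rule Clock was called in no class, as were 12.5% of the 15814 genes tested.

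Striatal projection neurons held the highest level of Npas2, 265 CPM in library 1 and 202 CPM in library 2. Excitatory neurons followed, with 134 CPM in library 1 and 131 CPM in library 2. Astrocytes had 161 CPM in library 1, on 10 UMIs, and 86.2 CPM in library 2. NPAS2 is known as the forebrain member of the pair with CLOCK, and striatal projection neurons and excitatory neurons were called higher for it. Over both libraries the fold over all other named nuclei was 2.03 (1.88 to 2.19) in striatal projection neurons, with 218 against 107 CPM, and 1.83 (1.72 to 1.95) in excitatory neurons, with 132 against 72.5 CPM. Interneurons had 45.7 CPM in library 1 and 33.8 CPM in library 2. With 39.5 against 126 CPM in the rest they were 3.21-fold lower. The other 5 classes apart from astrocytes were called lower too, from neuroblasts (28.8 CPM) down to oligodendrocytes (14.8 CPM, 8.12-fold lower, with a limit for free RNA of 22.6 CPM). Of these, oligodendrocytes, microglia and oligodendrocyte precursors lay at or under the upper limit for free RNA, so their Npas2 counts could not be told apart from it. In the order of levels, striatal projection neurons stood 1.64-fold (1.52 to 1.77) above excitatory neurons and astrocytes 2.48-fold (1.73 to 3.47) above interneurons, and the other neighbours did not differ beyond counting error. With a minimum of 1000 genes per nucleus Npas2 in excitatory neurons was 1.37-fold and lost its call.

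Arntl, whose product BMAL1 is the shared partner of CLOCK and NPAS2, was highest in excitatory neurons, with 54.0 CPM in library 1 and 63.4 CPM in library 2. It was 1.66-fold (1.52 to 1.83) above the rest there, with 58.9 against 35.4 CPM, and was called higher. Striatal projection neurons had 47.5 CPM, 1.24-fold under excitatory neurons (1.06 to 1.46), and interneurons had 36.9 CPM, 1.29-fold under striatal projection neurons (1.06 to 1.56). No other neighbours in the order of Arntl levels had a ratio whose interval excluded 1. Arntl was called lower in oligodendrocytes (0.48-fold), microglia (0.55-fold), astrocytes (0.43-fold, on 9 UMIs) and differentiating oligodendrocytes (0.10-fold, on 1 UMI). In all 4 its level lay at or under the limit for free RNA and could not be told apart from it.

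**Figure D1:**
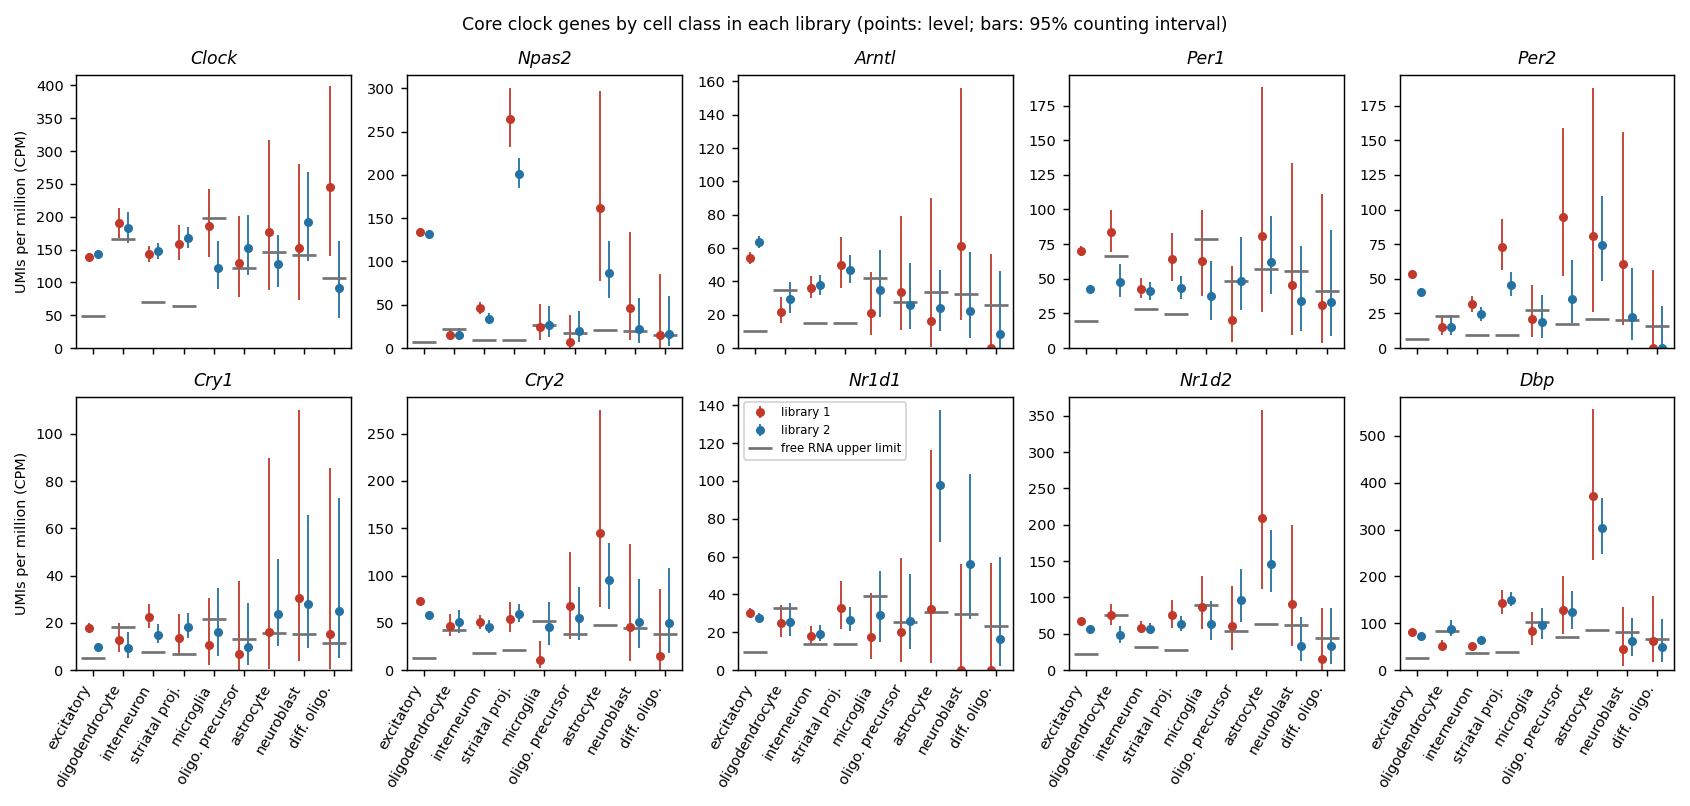
Level of each core clock gene (vertical axis, CPM) in the 9 cell classes, with library 1 in red and library 2 in blue, 95% counting intervals as bars and the upper limit for free RNA as a grey line. Npas2 stands out in striatal projection neurons (265 CPM in library 1, 202 CPM in library 2) and Dbp in astrocytes (371 CPM in library 1, 303 CPM in library 2), while Clock lies between 136 and 186 CPM when the libraries are summed and between 91.3 and 246 CPM in single libraries.

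The Per genes encode the proteins that carry light, activity and hormone signals into the loop. Per1 was called in no class, and ran from 32.3 CPM in differentiating oligodendrocytes to 66.4 CPM in oligodendrocytes, where the limit for free RNA was 66.2 CPM. Per2 was highest in astrocytes, the glial cells that clear transmitters and feed neurons, with 80.6 CPM in library 1, on 5 UMIs, and 74.3 CPM in library 2. Astrocytes had 75.3 against 42.0 CPM in the rest, 1.79-fold (1.21 to 2.56), and were called higher. Per2 was called lower in oligodendrocytes (15.1 CPM, 0.34-fold), interneurons (27.7 CPM, 0.62-fold) and microglia (19.6 CPM, 0.46-fold). In differentiating oligodendrocytes it had no UMI, which with 3 counts as the floor over both libraries puts it at least 2.63-fold lower. Apart from interneurons, these classes lay at or under the limit for free RNA for Per2, so their counts could not be told apart from it. No neighbours in the order of Per1 or Per2 levels differed beyond counting error. Further apart, Per2 in excitatory neurons (46.7 CPM, 44.5 to 48.9) lay above Per2 in interneurons (24.1 to 31.7 CPM).

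The Cry genes encode the proteins that shut CLOCK and BMAL1 off most directly. Cry1 had few counts, and ran from 8.76 CPM in oligodendrocyte precursors to 28.8 CPM in neuroblasts, where it was called higher at 1.98-fold on only 7 UMIs (0.79 to 4.10). Cry2 was highest in astrocytes, with 145 CPM in library 1, on 9 UMIs, and 95.1 CPM in library 2. This was 103 against 60.4 CPM in the rest, 1.70-fold (1.22 to 2.32) and called higher, and 1.58-fold (1.13 to 2.15) above excitatory neurons, the next class. Scaling by the median ratio of all genes, which moved astrocytes by 0.33 on the log2 scale, put Cry2 at 1.36-fold and Per2 at 1.43-fold there, and neither was then called.

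Nr1d1 and Nr1d2 encode REV-ERBα and REV-ERBβ, heme-binding receptors that repress Arntl and also many metabolic genes. Nr1d2 was highest in astrocytes, with 210 CPM in library 1 and 146 CPM in library 2. Its 156 against 61.8 CPM in the rest gave 2.52-fold (1.93 to 3.24), called higher, and 1.82-fold (1.20 to 2.79) above oligodendrocyte precursors, the next class. Nr1d1 was also highest in astrocytes at 87.8 CPM, 2.14-fold (1.03 to 4.83) above neuroblasts, but the libraries differed. It had 32.2 CPM in library 1, on 2 UMIs, and 98.1 CPM in library 2, on 33 UMIs, and was not called. Both genes were called lower in differentiating oligodendrocytes, Nr1d1 at 0.39-fold on 2 UMIs and Nr1d2 at 0.43-fold on 5 UMIs, both at or under the limit for free RNA.

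Dbp, the PAR-family transcription factor whose rhythm follows E-box activity closely, gave in astrocytes the largest fold of the members called higher in a class. It had 371 CPM in library 1 and 303 CPM in library 2. Astrocytes had 314 against 78.7 CPM in the rest, 3.99-fold (3.31 to 4.76), and stood 2.11-fold above striatal projection neurons, the next class. Striatal projection neurons had 143 CPM in library 1 and 150 CPM in library 2, 148 against 75.7 CPM in the rest, 1.96-fold (1.79 to 2.15), and were called higher as well. Relative to the shift of all genes the astrocyte folds were 3.18 for Dbp, 2.59 for Nr1d1 and 2.01 for Nr1d2. With a minimum of 1000 genes only 121 astrocytes remained, 17 of them in library 1, and the folds of Dbp, Nr1d2 and Cry2 were 2.40, 1.64 and 1.21, none of them called. All 10 astrocyte markers reached 20 CPM in astrocytes, and their summed level was 6288 CPM in library 1 and 5648 CPM in library 2. In the same nuclei 9 of 10 oligodendrocyte markers also reached 20 CPM (summed level 1806 CPM in library 1 and 2797 CPM in library 2), as did 6 of 8 excitatory markers (758 CPM in library 1 and 880 CPM in library 2), with none of either list at 0. Of the other lists, 7 of 10 interneuron markers (summed level 1596 CPM in library 1 and 1400 CPM in library 2, with 1 at 0) and 10 of 12 microglial markers (1145 CPM in library 1 and 1073 CPM in library 2) reached that level. Of the vascular lists, 1 of 10 endothelial markers reached 20 CPM in astrocytes, with 4 at 0 and a summed level of 597 CPM in library 1 and 687 CPM in library 2. Slco1c1, a gene of this list, was among the leading genes of the astrocyte cluster itself. Mural markers had 3 of 10 at that level and 4 absent, with a summed level of 145 CPM in library 1 and 226 CPM in library 2. Fibroblast markers had 3 of 9 and 2 absent, with 226 CPM in each library. In single libraries of the other 8 classes the summed level of each of these 3 lists was at most 78.8 CPM. In clusters without a class name that had vascular genes among their leading genes, Dbp had 126 and 173 CPM. The free RNA index of these clusters was above that of every named class, and no limit for free RNA was set for them. The part of these other cell types in the astrocyte folds was not tested. The members' astrocyte levels other than those of Clock and Arntl lay above the limit for free RNA.

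Counted by class, astrocytes had the most members called higher, 4 of 10 (Per2, Cry2, Nr1d2 and Dbp), where 16.9% of all genes tested were, and 1 of 10 called lower, where 23.7% of genes were. The median fold of the members in astrocytes was 1.63, against 1.06 for all genes. Excitatory neurons had 2 members called higher and 0 lower, with 7.78% and 21.3% of all genes, and striatal projection neurons 2 higher and 0 lower, with 7.15% and 19.5%. Interneurons had 0 higher and 2 lower (9.06% and 13.8% of all genes), microglia 0 and 3 (24.1% and 23.5%), oligodendrocytes 0 and 3 (19.7% and 23.6%), oligodendrocyte precursors 0 and 1 (15.9% and 19.8%), neuroblasts 1 and 1 (15.1% and 22.7%) and differentiating oligodendrocytes 0 and 5 (13% and 33.1%). In microglia all 10 members, and in oligodendrocytes 7, lay at or under the limit for free RNA. That limit is an upper bound set from these same classes, so these levels could not be told apart from free RNA and need not be free RNA. Scaling by the median ratio of all genes gave 7 higher and 26 lower calls over all classes, in place of 9 higher and 16 lower. Over all classes, 7 of the 10 members were called higher in at least 1, as were 68.8% of all genes, and 5 lower in at least 1, as were 68.9% of all genes. Fewer nuclei with a transcript and less transcript per nucleus cannot be told apart in sums of this kind.

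Of 25 other genes of the clock network, 23 had at least 50 UMIs, and Per3 was listed at 0. Astrocytes had 5 of the 23 called higher, where 16.9% of all genes were: Rora (2.28-fold), the activator that competes with REV-ERB, Hlf (1.79-fold), a relative of Dbp, Bhlhe40 (2.19-fold) and Bhlhe41 (1.96-fold), which repress at E-boxes, and Ciart (1.63-fold), a repressor of CLOCK and BMAL1. Btrc was the 1 called lower (23.7% of genes). Striatal projection neurons had 3 higher (7.15%), Rora (1.82-fold), Hlf (1.57-fold) and Fbxl21 (2.44-fold), and 2 lower (19.5%). Microglia had 6 higher and 6 lower, with 24.1% and 23.5% of all genes. The 6 higher were the kinase genes Csnk1d (1.80-fold) and Csnk1e (4.05-fold), whose products mark PER proteins for breakdown, Bhlhe41 (3.88-fold), the deubiquitinase gene Usp2 (1.92-fold), the phosphatase gene Ppp1ca (2.52-fold) and the ubiquitin ligase gene Skp1a (2.73-fold). Oligodendrocytes had 4 higher and 4 lower (19.7% and 23.6% of genes), and the higher ones included Bhlhe41 (2.54-fold), Skp1a (1.98-fold) and Ppp1ca (1.69-fold). Oligodendrocyte precursors had 4 higher (Bhlhe41, Csnk1d, Ppp1ca and Timeless, where 15.9% of genes were) and 2 lower (19.8%). Interneurons had 2 higher (Fbxl21 and Hdac3, with 9.06% of genes) and 4 lower (13.8%), and neuroblasts 2 higher and 3 lower (15.1% and 22.7%). Timeless, a replication fork gene, was 11.2-fold higher in neuroblasts on an interval of 4.42 to 23.7, beside Skp1a at 2.18-fold. Excitatory neurons had 0 higher and 1 lower (7.78% and 21.3%) and differentiating oligodendrocytes 0 and 6 (13% and 33.1%). Lower calls include genes with no UMI in a class. The limit for free RNA was not read for these genes, and their folds were not scaled. The median fold over genes with enough counts was 1.31 in microglia and 1.25 in astrocytes. Relative to these medians, higher calls near 1.5-fold in those classes would be weaker.

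Neurons were then compared by subclass, each of 13 subclasses against all other named subclasses of excitatory neurons, interneurons and striatal projection neurons. Npas2 gave 7 of the 17 calls and Dbp 3, while Clock, Per1 and Nr1d2 gave none, where 34% of 14373 genes were called in no subclass. Npas2 had 215 CPM in library 1 and 204 CPM in library 2 in direct-pathway striatal neurons, and 260 CPM in library 1 and 194 CPM in library 2 in indirect-pathway neurons. Layer 6 intratelencephalic neurons, which project within the cortex, had 225 CPM in library 1 and 179 CPM in library 2. These 3 subclasses were called higher, at 1.77-fold, 1.75-fold and 1.75-fold over the rest, where 7.44%, 7.06% and 2.9% of all genes were called higher. Among interneurons Npas2 was called lower in parvalbumin cells (40.6 against 130 CPM in the rest, 0.31-fold), somatostatin cells (30.2 against 130 CPM, 0.23-fold) and VIP cells (37.3 against 125 CPM, 0.30-fold), with 13.7%, 10.6% and 11.3% of all genes called lower. LAMP5 interneurons had 75.0 CPM and were not called. Layer 5/6 near-projecting neurons were called lower too (45.2 against 123 CPM, 0.37-fold), where 14.6% of genes were.

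Excitatory subclasses were spread widely for Npas2. Layer 6 intratelencephalic, layer 6b, claustrum, layer 5 extratelencephalic and layer 2/3 neurons had between 143 and 199 CPM. Neighbours in this order did not differ beyond counting error, but its ends did. Layer 6 intratelencephalic neurons had 199 CPM (183 to 216) and layer 2/3 neurons 143 CPM (135 to 152). Layer 6 corticothalamic neurons, which project to the thalamus, had 86.0 CPM in library 1 and 89.5 CPM in library 2, 1.63-fold (1.46 to 1.83) under layer 2/3. Excitatory clusters that received no subclass and were led by Rorb, Ndst4 and Ntng1 had 153, 64.0 and 42.6 CPM. Over the 13 subclasses the highest level of Npas2 was 6.93 times the lowest, while for Clock it was 1.34 times.

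Dbp was 1.92-fold (1.67 to 2.21) above the rest in direct-pathway neurons, with 145 CPM in library 1 and 144 CPM in library 2. In indirect-pathway neurons it was 2.16-fold (1.80 to 2.57), with 163 CPM in library 1 and 165 CPM in library 2. Both subclasses were called higher, 2 members of 10 in each with Npas2. Claustrum neurons had 111 CPM and the other subclasses between 48.9 and 87.9 CPM. Layer 6b neurons, the survivors of the subplate, were called lower for Dbp (0.61-fold), Arntl (0.55-fold) and Nr1d1 (0.51-fold), 3 of 10 members where 13.3% of all genes were lower. Somatostatin cells also had 3 members lower, Npas2, Cry2 (0.64-fold) and Nr1d1 (0.52-fold). Parvalbumin cells were lower for Per2 as well as Npas2, with 21.0 against 42.7 CPM in the rest, and VIP cells for Arntl as well as Npas2 (0.57-fold). Cry1 was lower in layer 5 extratelencephalic neurons, with 9.20 against 15.9 CPM (0.58-fold), where 12% of genes were lower. Some of these calls ended under other settings. With a minimum of 1000 genes that of Cry1 in layer 5 extratelencephalic neurons did (0.74-fold). With doublets kept it ended too, as did those of Arntl and Dbp in layer 6b (0.66-fold and 0.68-fold) and Cry2 in somatostatin cells (0.75-fold). Cry2 in somatostatin cells also lost its call as a mean over nuclei (0.65-fold). With clock genes among the clustering genes the calls of Dbp in layer 6b (0.67-fold) and Npas2 in indirect-pathway neurons (1.59-fold) ended, and at a finer clustering that of Npas2 in layer 6 intratelencephalic neurons (1.63-fold).

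Counted by subclass, direct-pathway neurons had 2 members higher and 0 lower (7.44% and 15.2% of all genes), indirect-pathway neurons 2 and 0 (7.06% and 20%) and layer 6 intratelencephalic neurons 1 and 0 (2.9% and 8.95%). Somatostatin cells had 0 higher and 3 lower (7.92% and 10.6%), layer 6b neurons 0 and 3 (5.2% and 13.3%), parvalbumin cells 0 and 2 (10.4% and 13.7%) and VIP cells 0 and 2 (8.31% and 11.3%). Near-projecting neurons had 0 and 1 (7.63% and 14.6%) and layer 5 extratelencephalic neurons 0 and 1 (4.27% and 12%). No member was called in layer 2/3 (5.64% of all genes higher and 11.3% lower), layer 6 corticothalamic (3.88% and 11.3%), LAMP5 (9.18% and 13.6%) or claustrum neurons (5.58% and 13.4%). In at least 1 subclass, 2 of the 10 members were higher, as were 49.3% of genes, and 7 lower, as were 56.9%.

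Since Per and Dbp genes can respond to other inputs, lists of activity genes and glucocorticoid-responsive genes were read in astrocytes and in the subclasses where Dbp was called. The shares of all genes called higher and lower were 16.9% and 23.7% in astrocytes and 7.44% and 15.2% in direct-pathway neurons. They were 7.06% and 20% in indirect-pathway neurons and 5.2% and 13.3% in layer 6b. In astrocytes 1 of 13 activity genes was called higher, Dusp1 (3.08-fold), and 6 lower, among them Nr4a1 (0.34-fold), and of 11 glucocorticoid-responsive genes 4 were higher, Tsc22d3 (4.55-fold), Klf9 (2.72-fold), Mt1 and Mt2, and 4 lower. In direct-pathway neurons 1 of 13 activity genes was called higher, Npas4 (1.95-fold), and 3 lower, Btg2, Ier2 and Bdnf (0.14-fold to 0.51-fold). In indirect-pathway neurons 2 were higher, Npas4 (1.94-fold) and Fosb (2.67-fold, 0.70 to 7.22), and 5 lower, Nr4a1, Nr4a3, Btg2, Ier2 and Bdnf (0.14-fold to 0.43-fold). Of 9 glucocorticoid-responsive genes tested, those higher in direct-pathway neurons were Fkbp5 (1.62-fold), a cochaperone gene of the glucocorticoid receptor, and Klf9 (1.41-fold over both libraries, with 1.58 in library 1 and 1.52 in library 2). In indirect-pathway neurons Fkbp5 (1.52-fold), Klf9 (1.71-fold) and Sgk1 (2.55-fold) were higher, and in both subclasses Zbtb16 was lower (0.039-fold in direct-pathway and 0.11-fold in indirect-pathway neurons). In layer 6b, where Dbp was lower, Nr4a3 was higher (2.26-fold) and Egr2, Bdnf, Sgk1 and Tsc22d3 were lower (0.40-fold to 0.58-fold).

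**Figure D2:**
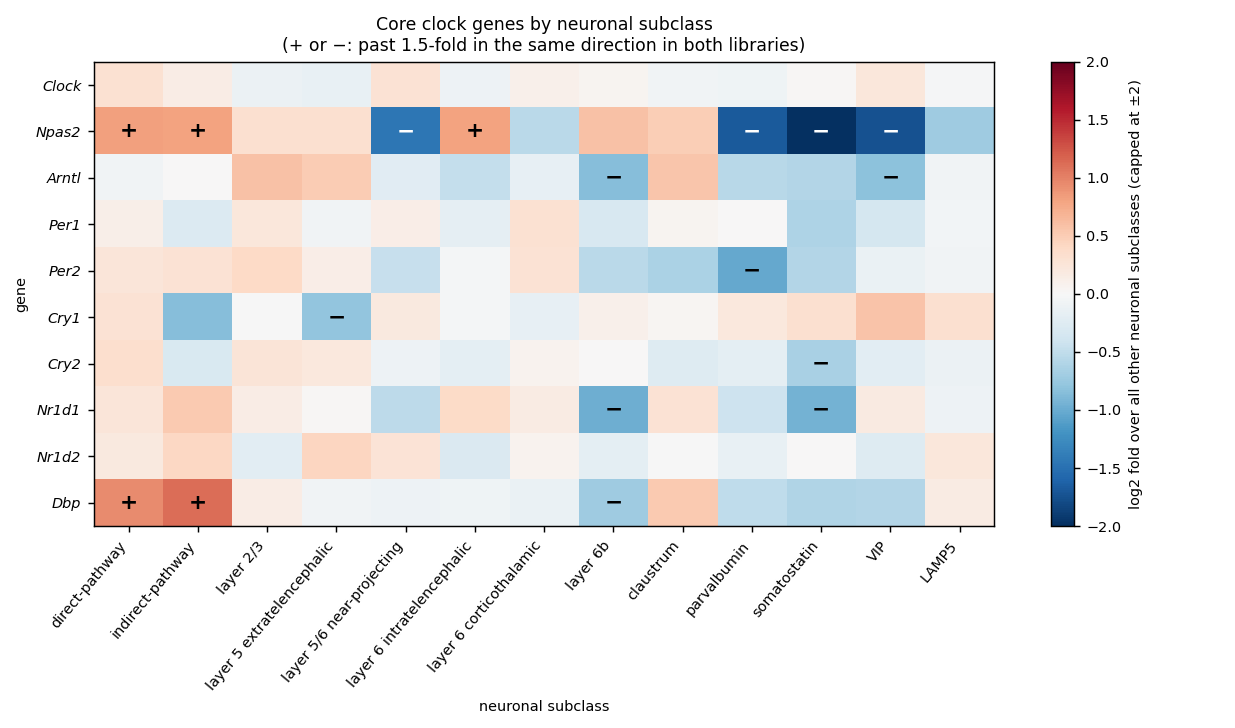
Fold of each core clock gene (rows) in 13 neuronal subclasses (columns) over all other named neuronal subclasses, on a log2 colour scale with red for higher and blue for lower, and with a sign where the gene was called. Npas2 carries 7 of the 17 signs, among them 1.77-fold in direct-pathway and 0.23-fold in somatostatin neurons, and Dbp is marked higher in both striatal subclasses (1.92-fold and 2.16-fold).

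The balance within each pair of paralogues was followed as the share of 1 gene in the UMIs of both. Capture differs between genes, so these shares serve to compare classes and are not relative abundances. Npas2 made up 56.8% (54.1 to 59.4%, exact binomial interval) of Npas2 and Clock UMIs in striatal projection neurons, 48.4% (47.4 to 49.3%) in excitatory neurons and 41.9% (31.8 to 52.6%) in astrocytes. The share was 21.4% in interneurons and 7.3% in oligodendrocytes, each below the intervals of both neuron classes above. Over the 13 subclasses of at least 100 nuclei it ran from 59.7% (56.6 to 62.8%) in layer 6 intratelencephalic neurons to 17.1% (13.9 to 20.8%) in somatostatin interneurons. The share was 62.5% in library 1 and 54.5% in library 2 in striatal projection neurons, and 49.0% and 47.8% in excitatory neurons of libraries 1 and 2.

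**Figure D3:**
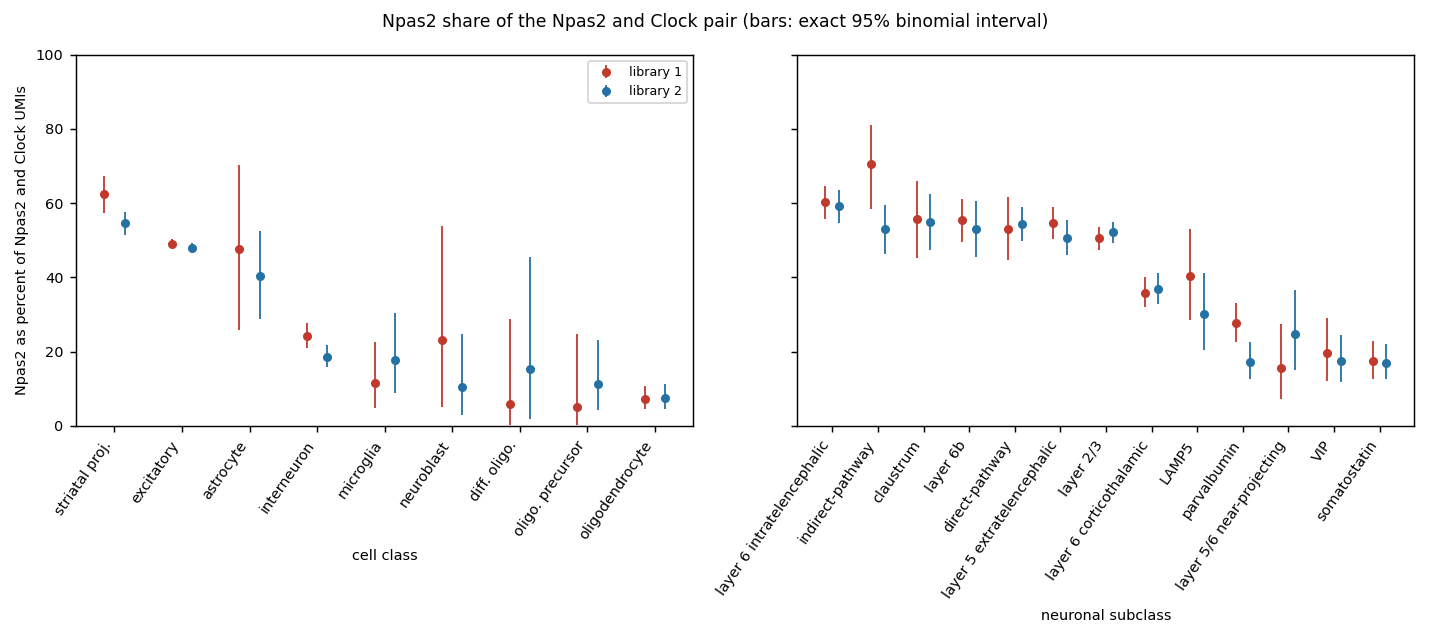
Npas2 as a percent of Npas2 and Clock UMIs (vertical axis) in cell classes on the left and neuronal subclasses on the right, with library 1 in red, library 2 in blue and exact 95% binomial intervals. Striatal projection neurons (62.5% in library 1 and 54.5% in library 2) lie above excitatory neurons (49.0% and 47.8%), and somatostatin interneurons are lowest of the 13 neuronal subclasses shown.

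Per1 made up 54.4% (52.8 to 56.0%) of the Per pair in excitatory neurons, 60.2% in interneurons and 47.9% in striatal projection neurons. It was 81.5% (75.9 to 86.2%) in oligodendrocytes, where Per2 lay under the limit for free RNA. In parvalbumin interneurons it was 70.3% (63.6 to 76.4%), with 64.5% in library 1 and 76.5% in library 2, and in these cells Per2 was called lower and Per1 was not called. Cry1 made up 17.3% (16.0 to 18.8%) of the Cry pair in excitatory neurons and 28.0% (24.1 to 32.2%) in interneurons, and ran from 11.9% in layer 5 extratelencephalic neurons to 32.1% in somatostatin cells. Nr1d1 made up 31.9% (30.3 to 33.5%) of the Nr1d pair in excitatory neurons and 24.5% (21.0 to 28.2%) in interneurons.

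The libraries were compared within excitatory neurons, the class with the most UMIs, as the ratio of library 1 to library 2. Since treatment, the mice pooled, the dissection and any difference in time of death all follow the library, they cannot be told apart, and the direction of treatment is unknown. Per1 had 69.9 CPM in library 1 and 42.7 CPM in library 2, a ratio of 1.64 (1.5 to 1.79). Cry1 had 17.7 CPM in library 1 and 9.90 CPM in library 2, a ratio of 1.79 (1.49 to 2.15). These 2 of the 10 members were at least 1.5-fold higher in library 1, where 1.87% of 14573 genes were, and 0 were at least 1.5-fold lower, where 6.28% of genes were.

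Per2 had 53.2 CPM in library 1 and 40.7 CPM in library 2, a ratio of 1.31 (1.19 to 1.44). Cry2 had 72.6 CPM in library 1 and 58.1 CPM in library 2, a ratio of 1.25 (1.15 to 1.35). Nr1d2 and Dbp followed with ratios of 1.20 (1.10 to 1.3) and 1.11 (1.03 to 1.19). All 4 Per and Cry genes, the repressing arm, were thus higher in library 1 beyond counting error. Arntl went the other way, with 54.0 CPM in library 1 and 63.4 CPM in library 2, a ratio of 0.85 (0.78 to 0.93). The intervals of Clock (0.97), Npas2 (1.02) and Nr1d1 (1.09) included 1.

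The ratios were followed over 10 groups of excitatory neurons, 7 subclasses and 3 clusters without a subclass. Layer 6 corticothalamic neurons were 2 clusters split by library, with 608 of 642 and 13 of 592 nuclei in library 1, so the ratios of this group compare different clusters. Per1 was higher in library 1 in 8 of the 10, and in 7 of these the interval lay above 1. In the clusters led by Rorb, Ndst4 and Ntng1 it had 82.8, 81.8 and 79.2 CPM in library 1, against 41.9, 43.9 and 40.3 CPM in library 2, while near-projecting and layer 6b neurons had ratios of 0.69 and 0.78. Cry1 was higher in library 1 in 9 of the 10 groups, and Per2, Cry2, Nr1d2 and Dbp in 8 each. The interval lay above 1 in 5 groups each for Cry1 and Per2, 3 for Cry2 and 2 each for Nr1d2 and Dbp. Arntl was lower in library 1 in 10 of 10, and 5.31% of all genes were, but its interval lay below 1 in only 1 group, layer 2/3. Of all genes, 14.5% were higher in library 1 in at least 8 groups and 6.46% in at least 9. Standardised over the groups (Mantel-Haenszel), which holds their makeup the same in both libraries, the ratios were 1.65 for Per1, 1.82 for Cry1, 1.31 for Per2, 1.24 for Cry2 and 0.85 for Arntl, and their median over the members was 1.15, against 1.0 for all genes.

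Of the 23 other clock genes, 1 was at least 1.5-fold higher and 1 at least 1.5-fold lower in library 1, where 1.87% and 6.28% of all genes were. Ciart had 75.2 CPM in library 1 and 39.6 CPM in library 2 (ratio 1.90, 1.74 to 2.07) and was higher in 10 of 10 groups. By standardised ratio Bhlhe41 (1.48), Bhlhe40 (1.42), Hlf (1.38) and Timeless (1.37) followed, while Usp2 (1.14) and Tef (1.11) were closer to 1. Fbxl21 (0.753), Ppp1ca (0.702) and Nfil3 (0.673) were lower in library 1. Skp1a was at 0.46, and the median of the standardised ratios over the list was 1.06. Of 9 glucocorticoid-responsive genes, 1 had a standardised ratio of at least 1.5 and 3 a ratio at or under 1/1.5, and of 13 activity genes 2 and 0 had. Of all genes, 1.87% and 6.13% had such ratios. Among glucocorticoid-responsive genes Fkbp5 had a standardised ratio of 1.63 and Klf9 of 1.4, but Tsc22d3 had 0.632 and the metallothionein genes Mt1 and Mt2 had 0.207 and 0.158. Among activity genes Dusp1 had 1.51, Nr4a3 1.60 and Fos 1.04, but Npas4 had 0.813.

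The libraries also differed in other respects. In excitatory neurons the summed level of 10 oligodendrocyte markers was 605 CPM in library 1 and 897 CPM in library 2. That of 12 striatal markers was 549 CPM in library 1 and 862 CPM in library 2, with no marker of either list at 0. With the estimated free RNA subtracted, the ratios of Per1, Cry1, Per2 and Cry2 were 1.80, 2.14, 1.35 and 1.62, that of Arntl was 0.85, and that of Nr1d2 was 0.997. Under that setting only 5 of the 10 member ratios stayed within their main counting intervals. Leaving out barcode sequences found in both libraries gave 1.63 for Per1 and 1.81 for Cry1, and 10 of 10 ratios stayed within theirs. The part of dissection, mice and time of death in the ratios was not tested.

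**Figure D4:**
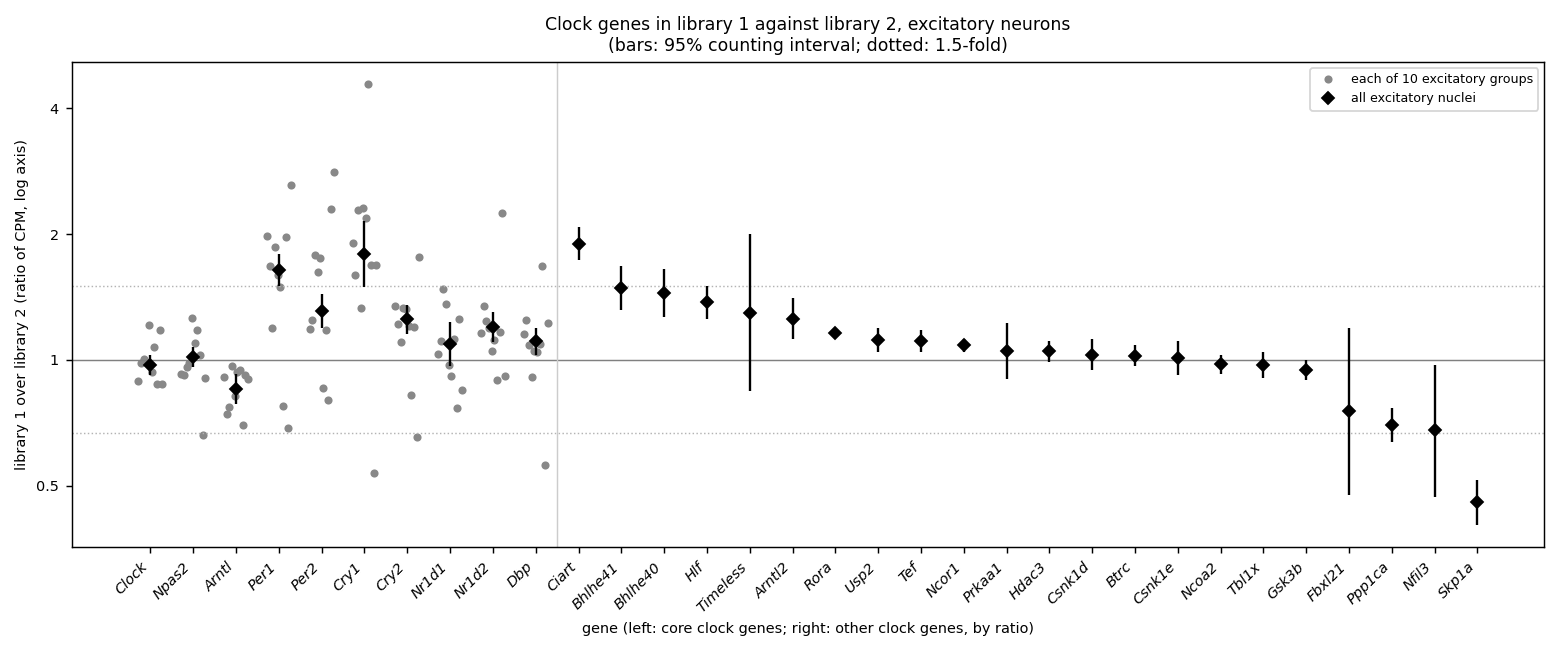
Ratio of library 1 to library 2 in excitatory neurons (vertical axis, log scale) for the core clock genes on the left and 22 other clock genes on the right. Diamonds are all excitatory nuclei with 95% counting intervals, grey points each of 10 excitatory groups, and dotted lines 1.5-fold. Per1 (1.64), Cry1 (1.79) and Ciart (1.90) lie above the upper dotted line, and Arntl has all 10 groups under 1, of which 1 has an interval below 1.

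Other classes gave fewer counts and a less even picture. Per1 was also higher in library 1 in oligodendrocytes (83.7 CPM in library 1 and 47.6 CPM in library 2, ratio 1.76, 1.29 to 2.41) and in striatal projection neurons (64.2 CPM in library 1 and 43.0 CPM in library 2, ratio 1.49, 1.07 to 2.07). In interneurons its ratio had an interval that included 1, with 43.0 CPM in library 1 and 40.8 CPM in library 2, while Cry1 had 22.6 CPM in library 1 and 15 CPM in library 2 (ratio 1.5, 1.06 to 2.14). Per2 had a ratio of 1.61 (1.17 to 2.19) in striatal projection neurons. Dbp, a little higher in library 1 in excitatory neurons, was lower in library 1 in oligodendrocytes (51.3 CPM in library 1 and 88.6 CPM in library 2, ratio 0.58, 0.43 to 0.78) and in interneurons (0.81, 0.67 to 0.98). In oligodendrocytes Per1 was close to the limit for free RNA and Dbp under it, and levels under it could not be told apart from free RNA. At least 1.5-fold higher in library 1 were 2 of 10 members in oligodendrocytes (6.62% of all genes), Per1 and Nr1d2. Nr1d2 had 75.6 CPM in library 1 and 47.6 CPM in library 2 there, and over both libraries lay under its limit for free RNA of 76.5 CPM. The same fold was reached by 1 member in interneurons (2.75%) and 1 in striatal projection neurons (4.99%). At least 1.5-fold lower in library 1 were 1 of 10 in oligodendrocytes, Dbp (16.8% of genes), 0 in interneurons (7.25%) and 0 in striatal projection neurons (11%). Whether the ratios differ between classes was not tested.

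For each member the genes with the most similar pattern were found over 19 classes and subclasses, as the lower of the Pearson r of log2(CPM + 5) in library 1 and in library 2, among 9579 genes. These r are descriptions, since the types of a library share its depth and free RNA. Arntl was closest to Lin7b (0.86), Rbfox3 (0.84), which marks neurons, and Sipa1l1 (0.82). Npas2 was closest to Lncpint (0.83), Rasgef1a (0.82) and Nin (0.82), and Dbp to Ttyh1 (0.77), Znrf3 (0.74) and Kcnk1 (0.70). Per2 was closest to Hirip3 (0.77), Bcl2 (0.75) and Dynlt1a (0.74), and Nr1d2 to Atl2 (0.70), Arhgef4 (0.70) and Per2 itself (0.67), the only member in the list of another. Cry1 was closest to Nop9 (0.71), Nudcd2 (0.62) and Unc119 (0.61), Nr1d1 to Mras (0.66), Chst1 (0.65) and 1110019D14Rik (0.62) and Cry2 to Acsl6 (0.61), Dtna (0.60) and Nim1k (0.59). Clock and Per1, with the flattest levels, had the weakest likeness, Clock with Fam104a (0.60), Gsk3a (0.57) and Lysmd2 (0.57) and Per1 with Dnajc16 (0.58), Spice1 (0.49) and Nabp2 (0.49). Between members the next highest were Arntl with Per2 (0.56) and Nr1d2 with Dbp (0.48), while Clock and Arntl, whose products pair, had r of -0.78 in library 1 and 0.30 in library 2.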

How the data were processed

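The authors deposited 1 matrix of UMI counts per gene and barcode, not normalized and holding both libraries. Per the submitters' processing notes, Cell Ranger 1.3.0, Seurat 3.1.4 and the genome build mm10 were used, while the file header gives software version 3.1.0. Filters, strand and use of intronic reads are not given in the sources used here. The matrix held 66566100 UMIs over 20766 barcodes, 31273163 in library 1 and 35292937 in library 2, and 35 gene symbols occurred in more than 1 row.

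Barcodes with at least 500 genes were kept (19551). Scrublet, run in each library within scanpy 1.11.5, marked 1549 doublets (10.0% of library 1 and 6.19% of library 2), which were removed, leaving a median of 2978 UMIs. Nuclei were clustered on 3000 variable genes without the clock genes, 50 principal components and 20 neighbours, with Leiden resolution 1 (leidenalg 0.10.2, igraph 0.11.9, Python 3.11.15). Clusters were named from marker lists, of which 203 of 227 markers were usable, and 13 of 43 clusters (7.09% of nuclei) stayed unnamed. Since the names were rebuilt here, shares may differ from those of the study.

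UMIs were summed per class and library. Intervals of levels are exact Poisson, of ratios exact conditional and of shares exact binomial (Clopper-Pearson), all at 95%. A gene was called where its fold passed 1.5 in the same direction in both libraries, among genes with at least 50 UMIs and groups of at least 100 nuclei. Per library, the upper limit for free RNA of a gene is its lowest upper Poisson bound per unit of index over the classes, multiplied by the index of the class. The index is the level of Slc17a7, and in excitatory neurons that of 4 oligodendrocyte genes scaled to Slc17a7 by their ratio in other classes. Calls and intervals were run on simulated Poisson counts with changes larger than 1.5-fold. These held no free RNA, doublets, misnamed nuclei or differences between libraries, so they do not show how the calls stand up to those.

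Genes named are the 10 members, other clock genes called higher in a class, activity and glucocorticoid-responsive genes called in the subclasses of Per1 or Dbp, and for each member the 3 genes of highest likeness with at least 500 UMIs. Other genes named, in the ratios of the libraries and among the lower calls, were chosen after their values were seen. Some genes of the lists are not reported here. The members and lists were chosen with earlier results of these data known. Alternatives were a minimum of 1000 genes, doublets kept, median of ratios scaling, free RNA subtracted, a mean over nuclei, clock genes kept for clustering, resolution 2, a fold of 2, no minimum of UMIs, each library alone, a pseudocount of 1 and Spearman's rho. Those of the library ratios by scaling, standardisation, free RNA and shared barcodes were added after seeing the data, as was leaving out shared barcodes for the classes.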

Additional observations from a re-analysis of the deposited data

Results flagged for a closer look

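Clusters that received no class name enter no comparison above. The results below were at least 2-fold above the level in named nuclei in each library, in a cluster of this kind, and other members reached that fold in 1 library or in neither, such as Nr1d2 in the cluster led by Rgs5 (103 CPM). Nr1d1 had 60.8 CPM (32.4 to 104, 13 UMIs) in a cluster of 105 nuclei led by Rgs5, Ly6c1 and Cldn5, known from blood vessel cells, against 27.5 CPM in named nuclei. Its level there was 69.9 CPM in library 1, which held only 6 of the nuclei, and 60.1 CPM in library 2. Arntl and Per1 had the same level of 69.9 CPM in library 1, where these levels rest on very few UMIs. Dbp had 173 CPM (104 to 270, 19 UMIs) in a cluster of 100 nuclei with Vtn and Ranbp3l among its leading genes, against 80.4 CPM in named nuclei, with 171 CPM in library 1 and 173 CPM in library 2. The free RNA index was 909 CPM in library 1 and 616 CPM in library 2 in the cluster led by Rgs5, and 1239 and 947 CPM in libraries 1 and 2 in the cluster with Vtn and Ranbp3l. In both clusters it was above that of every named class, the highest being 371 CPM in library 1 (astrocytes) and 529 CPM in library 2 (microglia). No limit for free RNA was set for these clusters, so these levels could not be told apart from free RNA, and its part was not tested.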

How the results depend on the processing

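No paired analysis was possible because each group has 1 library and no test was run. Of 25 class calls, 25 were kept with clock genes among the clustering genes, at resolution 2, with no minimum of UMIs and with shared barcodes left out, 22 each with median of ratios scaling, free RNA subtracted and a mean over nuclei, 20 with doublets kept, 13 at a fold of 2 and 9 with a minimum of 1000 genes. No called fold turned direction under any of these. Calls of members as higher over classes were 9, against 4 with a minimum of 1000 genes and 2 at a fold of 2. Calls lower were 16, against 5 with a minimum of 1000 genes, 26 with median of ratios scaling and 45 with free RNA subtracted. Of 17 subclass calls, 17 were kept with median of ratios scaling, free RNA subtracted and no minimum of UMIs, 16 each with 1000 genes, a mean over nuclei and resolution 2, 15 with clock genes among the clustering genes, 13 with doublets kept and 5 at a fold of 2. In subclasses, calls higher were 5, against 11 with free RNA subtracted and 1 at a fold of 2, and calls lower 12, against 23 with free RNA subtracted and 4 at a fold of 2. With 1000 genes 8 of the 25 class calls fell in groups under 100 nuclei and 8 more were lost, and for the rest the cause was not tested. Median of ratios scaling moved the median gene by 0.33 in astrocytes, 0.39 in microglia, 0.39 in neuroblasts, 0.43 in differentiating oligodendrocytes, 0.24 in oligodendrocyte precursors, 0.17 in oligodendrocytes and -0.24 in excitatory neurons on the log2 scale. In excitatory neurons Per1 made up 56.8% of its pair in library 1 alone and 51.2% in library 2 alone, and Cry1 19.6% and 14.6% in libraries 1 and 2 alone. The library ratio of Nr1d2 turned to 0.997 with free RNA subtracted. Of the 30 genes of highest likeness, 27 were found with a pseudocount of 1 and 6 with Spearman's rho. Depth limits the glial classes and neuroblasts, where several calls rest on under 10 UMIs.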
